A study of Mus musculus with 9 samples.

Results

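The genes described are 43 cell cycle and proliferation genes, taken by symbol from the 26683 rows of the gene count table, each with at least 10 counts summed over the 9 libraries. They fall into 25 mitotic genes, 13 DNA replication genes, 3 regulators of G1 (Ccnd1, Ccne1 and E2f1) and 2 further genes of dividing cells (Hmgb2 and Stmn1). All 43 met the count minimum, from 106 counts for Bub1 upwards, and all 43 were among the 17362 genes tested.

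Bulk RNA-seq measured the transcripts of mouse retina, collected at postnatal day 17, in 3 groups of 3 libraries. The Normoxic group held retinas of mice that were not in the retinopathy model, and no injection is stated for it. The PBS group held retinas from oxygen-induced retinopathy (OIR), in which pups kept in high oxygen lose retinal capillaries and on return to room air grow abnormal vessels, injected into the vitreous with saline buffer at postnatal day 15. The Gel group held OIR retinas injected on the same day with PCC1/PHCF Gel, a hydrogel loaded with procyanidin C1, a plant polyphenol used to remove senescent cells. PHCF is not spelled out in the labels. The PBS and Gel groups therefore share the disease model and an injection, PBS against Normoxic joins model and injection, and no group received a gel without the compound. Strain, sex, oxygen exposure and number of animals per library are not given in the labels, all 9 libraries carry the same batch date, and the p-values measure only the spread between these libraries, which may be technical.

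Cells that divide copy their DNA in S phase, with helicase (MCM), nucleotide-making and chromatin-copying proteins, and then separate the copies in mitosis with cyclin B and CDK1, spindle motors, checkpoint kinases and the anaphase-promoting complex. Many mitotic transcripts are made mainly in G2 and M phases, while S-phase transcripts start at the G1/S border under E2F factors. In the mouse retina neurogenesis ends in the first postnatal weeks, and in OIR the dividing cells are known to include those of the vessel tufts.

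Promoter sequences are shown because CHR matches were found mostly in mitotic genes and E2F matches in replication genes, while CCAAT boxes were common in both. As background, the cell cycle genes homology region (CHR, TTTGAA) and the CCAAT box (CCAAT) are known from promoters of mitotic genes, and GCGGGAA is a form of the E2F site. Each line gives the 200 bases before the gene start, 5′ to 3′ in the direction of the gene, from RefSeq on GRCm38.p6. Capitals mark the CHR letters TTTGAA (reverse complement TTCAAA), the box letters CCAAT (reverse complement ATTGG) and the E2F letters GCGGGAA (reverse complement TTCCCGC). The first 5 lines are mitotic genes that rose in PBS retinas and the sixth is Hmgb2, all picked because they hold a CHR match. The seventh is Ccnb1, which rose and holds none.
Mki67, chr7:135716380-135716579, reverse strand: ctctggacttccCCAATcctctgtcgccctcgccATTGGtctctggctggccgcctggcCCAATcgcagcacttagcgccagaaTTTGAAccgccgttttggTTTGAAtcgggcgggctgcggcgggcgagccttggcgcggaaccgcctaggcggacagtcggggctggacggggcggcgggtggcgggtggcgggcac
Top2a, chr11:99024190-99024389, reverse strand: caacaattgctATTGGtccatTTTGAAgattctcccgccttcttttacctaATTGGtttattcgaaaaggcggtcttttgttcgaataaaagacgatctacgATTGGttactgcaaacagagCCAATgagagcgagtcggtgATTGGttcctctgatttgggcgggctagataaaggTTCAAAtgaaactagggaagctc
Cdk1, chr10:69352913-69353112, reverse strand: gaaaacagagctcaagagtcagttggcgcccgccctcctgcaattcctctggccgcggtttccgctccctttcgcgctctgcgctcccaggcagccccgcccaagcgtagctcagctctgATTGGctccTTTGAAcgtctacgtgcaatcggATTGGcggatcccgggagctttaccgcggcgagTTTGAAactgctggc
Ube2c, chr2:164769729-164769928, forward strand: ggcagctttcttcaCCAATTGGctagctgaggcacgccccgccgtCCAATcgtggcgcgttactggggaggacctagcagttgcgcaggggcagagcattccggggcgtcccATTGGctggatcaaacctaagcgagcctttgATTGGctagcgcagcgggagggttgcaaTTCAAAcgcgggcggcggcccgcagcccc
Cdc20, chr4:118437344-118437543, reverse strand: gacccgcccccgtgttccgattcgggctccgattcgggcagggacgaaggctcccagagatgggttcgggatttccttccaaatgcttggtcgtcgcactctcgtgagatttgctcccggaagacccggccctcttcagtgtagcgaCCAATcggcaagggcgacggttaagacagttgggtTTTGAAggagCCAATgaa
Hmgb2, chr8:57511643-57511842, forward strand: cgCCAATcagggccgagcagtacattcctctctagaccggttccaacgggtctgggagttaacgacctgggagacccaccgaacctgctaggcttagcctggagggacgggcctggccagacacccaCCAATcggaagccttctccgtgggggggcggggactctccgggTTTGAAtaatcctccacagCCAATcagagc
Ccnb1, chr13:100786487-100786686, reverse strand: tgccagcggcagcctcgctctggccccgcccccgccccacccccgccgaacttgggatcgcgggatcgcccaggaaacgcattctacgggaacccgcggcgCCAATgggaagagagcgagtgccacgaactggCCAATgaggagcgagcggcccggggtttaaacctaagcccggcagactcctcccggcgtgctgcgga
The next 3 lines are replication genes picked because they hold an E2F match.
Uhrf1, chr17:56303137-56303336, forward strand: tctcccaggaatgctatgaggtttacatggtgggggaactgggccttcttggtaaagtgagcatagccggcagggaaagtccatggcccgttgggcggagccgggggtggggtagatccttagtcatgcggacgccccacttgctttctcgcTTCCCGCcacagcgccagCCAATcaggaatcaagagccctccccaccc
Rrm1, chr7:102441495-102441694, forward strand: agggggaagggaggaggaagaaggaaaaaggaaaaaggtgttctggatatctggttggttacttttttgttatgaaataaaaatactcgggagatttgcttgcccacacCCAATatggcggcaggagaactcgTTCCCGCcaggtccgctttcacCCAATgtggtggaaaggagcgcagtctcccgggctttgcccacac
Mcm7, chr5:138171884-138172083, reverse strand: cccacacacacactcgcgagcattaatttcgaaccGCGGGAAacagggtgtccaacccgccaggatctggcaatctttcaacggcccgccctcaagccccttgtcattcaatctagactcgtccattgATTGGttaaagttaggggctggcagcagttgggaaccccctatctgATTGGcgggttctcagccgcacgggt

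Mki67 held 2 CHR and 3 CCAAT matches, Cdk1 held 2 CHR matches, and Ube2c held a CCAAT that overlaps its own reverse complement. Ccnb1 and Nusap1 rose without a CHR match in the searched window, and Kif23 holds no CHR match wholly before the gene start. None of the 7 upper promoters held the E2F letters, and none of the 3 lower ones held the CHR letters. Of the 43 genes, 36 were matched in the RefSeq table, and the search covered 300 bases per gene, from 250 before to 50 after the start, on both strands. TTTGAA was in 16 of 21 mitotic promoters (76.2%) and in 1 of 12 replication promoters (8.33%), against 18.1% of all 27025 promoters of the same length. GCGGGAA was in 0 of 21 mitotic promoters and in 5 of 12 replication promoters (41.7%), against 4.66% of all promoters. CCAAT was in 18 of 21 (85.7%) and 9 of 12 (75%), against 37.9% of all. Among other genes of the same pathways, TTTGAA was in 29 of 47 mitotic promoters (61.7%) and 5 of 33 replication promoters (15.2%), and GCGGGAA in 4 (8.51%) and 13 (39.4%). A letter match is a description and not a binding site.

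The library totals ran from 29324142 to 35663470 counts. Levels are given as CPM, a gene's count scaled to a library total of 1e+06, in the order of replicates 1, 2 and 3, and levels between genes are compared in the deposited FPKM, which divides by gene length. Where genes are split by CPM, the split is by the counts behind their values and not by transcript level. In bulk tissue, fewer cells of a type and less RNA per cell cannot be told apart. Mean FPKM over the 9 libraries ran from 0.0598 for Cenpf to 6.57 for Ccna2 among mitotic genes, with a median of 0.368, and from 0.14 for Hells to 49 for Pcna among replication genes, with a median of 1.71. Thus 21 of 25 mitotic genes but 5 of 13 replication genes averaged at most 3 CPM. For 12 genes (Mki67, Top2a, Ccnb1, Cdk1, Bub1, Aurkb, Birc5, Cenpf, Kif23, Ube2c, Tk1 and Uhrf1) not every Normoxic library reached the 0.319 CPM that the expression filter asks for, so they passed it through the other groups. The counts of called genes and the medians below describe all 43 and are not independent of that.

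In PBS retinas 18 of the 43 genes were higher than in Normoxic retinas and 0 were lower, by edgeR's quasi-likelihood test with an adjusted p under 0.05 over all 17362 genes. Among all genes tested, 4.31% were called higher, 2.03% lower and 6.34% in either direction. The 18 were 11 mitotic genes, 5 replication genes, Ccnd1 and Hmgb2, and they include Mki67, whose protein coats mitotic chromosomes and is the common stain for dividing cells, and Top2a, the topoisomerase that untangles sister DNA. The fitted log2 fold change was above 0 in 40 of the 43, against 51.3% of all genes. Its median was 1.15, from -0.31 for Ccne1 to 3.88 for Top2a, beside 0.01 for all genes tested. In 30 genes every PBS library was above every Normoxic library, and in 1, Ccne1, every PBS library was below, where 14.9% and 14.1% of all genes tested did so.

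**Figure D1:**
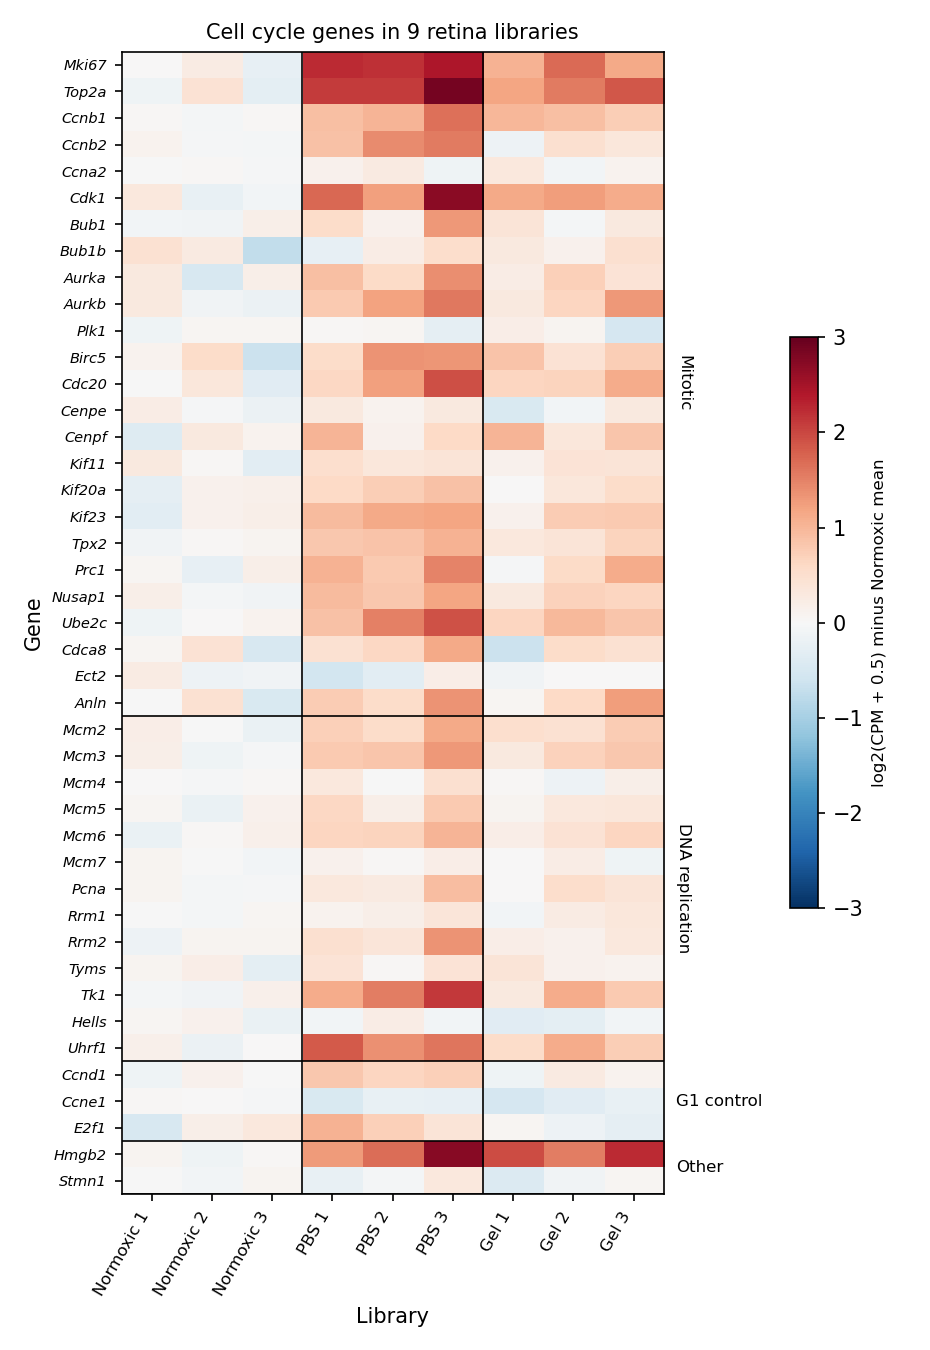
Log2(CPM + 0.5) of each of the 43 genes in each of the 9 libraries, minus the mean of the 3 Normoxic libraries, with genes in rows by class and libraries in columns. PBS 3 is the highest of the PBS libraries for 19 of 25 mitotic and 10 of 13 replication genes.

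Mki67 was at 0.409, 0.585 and 0.261 CPM in Normoxic retinas and at 3.82, 3.68 and 4.42 CPM in PBS retinas. The PBS libraries lay far above the Normoxic ones and close to each other. Its log2 fold change was 3.24 ± 0.36 (SE, n = 3 and 3), a 9.47-fold rise (edgeR adjusted p = 0.000738). Top2a was at 0.136, 0.431 and 0.0653 CPM and then at 2.45, 2.45 and 4.59 CPM. The groups did not overlap, and PBS 3 stood above the other PBS libraries. Top2a rose by 3.88 ± 0.56 (edgeR adjusted p = 0.003), and by 4.95 when Normoxic 2, which holds most of its Normoxic counts, was left out.

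The kinase that starts mitosis and both of its B cyclins rose. Cdk1, the catalytic subunit, was at 0.546, 0.215 and 0.294 CPM in Normoxic and 2.26, 1.47 and 5.01 CPM in PBS retinas, a log2 change of 3.08 ± 0.52 (edgeR adjusted p = 0.00611). Every PBS value exceeded every Normoxic value, and the change was 2.40 without PBS 3, the highest library. Ccnb1, cyclin B1, was at 0.102, 0.0615 and 0.098 CPM and then at 0.605, 0.682 and 1.35 CPM, a change of 3.31 ± 0.53 (edgeR adjusted p = 0.00499). Its listed pseudogene, Ccnb1-ps, had 3 counts over the 9 libraries. Ccnb2, cyclin B2, was at 0.648, 0.554 and 0.523 CPM and then at 1.47, 2.39 and 2.67 CPM, a change of 1.93 ± 0.38 (edgeR adjusted p = 0.0129). Neither cyclin B overlapped between the groups. Ccna2, cyclin A2, which acts in S phase and G2, was instead at 21.0, 21.5 and 20.7 CPM and then at 23.1, 25.5 and 19.2 CPM, and its change of 0.11 did not pass the test (95% interval -0.18 to 0.39). Exons of Ccna2 share 510 bases with Exosc9 on the opposite strand in GENCODE on GRCm38, Exosc9 had 17.6, 22.1 and 20 CPM in the Normoxic, PBS and Gel means, and the strand setting of the counting is not given, so the Ccna2 level is uncertain.

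Ube2c and Cdc20 act in mitotic exit. Ube2c, the ubiquitin-conjugating enzyme of the anaphase-promoting complex, was at 0.0682, 0.123 and 0.163 CPM in Normoxic and 0.637, 1.26 and 1.83 CPM in PBS retinas. These groups did not overlap, and the log2 change was 3.37 ± 0.54 (edgeR adjusted p = 0.00499). Ube2c shares 592 exon bases with Tnnc2 on the other strand, whose mean stayed between 0.0439 and 0.154 CPM in the 3 groups. Cdc20, the activator of that complex, was at 0.58, 0.861 and 0.359 CPM and then at 1.15, 2.04 and 3.6 CPM, a change of 1.93 ± 0.47 (edgeR adjusted p = 0.0362), whose call was lost under 9 of 19 alternatives.

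**Figure D2:**
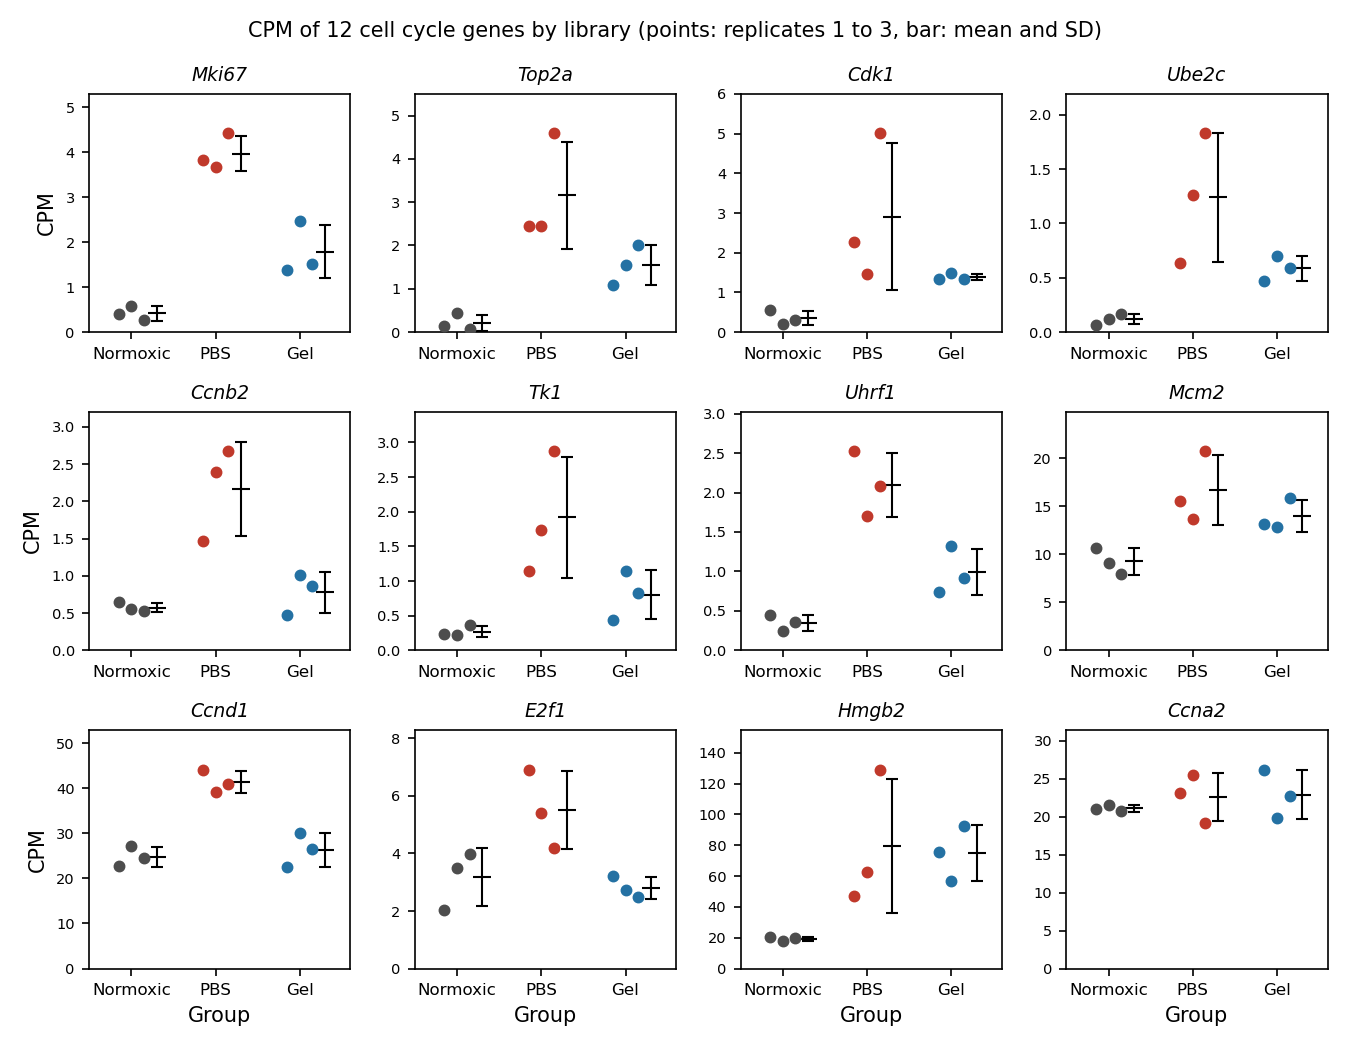
CPM of 12 of the genes in each library, with points for libraries and black bars for the group mean and SD, in the Normoxic, PBS and Gel groups (n = 3 each). Mki67, Top2a, Cdk1, Ube2c, Ccnb2, Tk1, Uhrf1, Mcm2, Ccnd1, E2f1 and Hmgb2 show no overlap between Normoxic and PBS, while Ccna2 lies between 19.2 and 25.5 CPM in both. Of all genes tested, 14.9% were higher in PBS without overlap.

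Besides Cdk1, the mitotic kinases and checkpoint proteins here are Aurka, Aurkb, Plk1, Bub1 and Bub1b, of which Aurkb passed the test. Aurkb, the kinase of the chromosomal passenger complex, was at 0.239, 0.0615 and 0.0327 CPM in Normoxic and 0.542, 0.886 and 1.32 CPM in PBS retinas, a change of 3.05 ± 0.74 (edgeR adjusted p = 0.0336), and 4.18 without Normoxic 1. Its partner Birc5, survivin, changed by 1.60 ± 0.55 (edgeR adjusted p = 0.119), and Cdca8, borealin, by 1.06 ± 0.56 (edgeR adjusted p = 0.303). Aurka, the spindle pole kinase, had 1.23 ± 0.37 (edgeR adjusted p = 0.076), and passed without PBS 2 (adjusted p = 0.0483). In Aurka, Birc5 and Cdca8 all PBS libraries were still above all Normoxic ones. Bub1, a checkpoint kinase with 0.136, 0.123 and 0.261 CPM in Normoxic and 0.478, 0.239 and 1.15 CPM in PBS, overlapped between the groups (edgeR adjusted p = 0.137). Plk1, the polo-like kinase, stood at 5.46 to 6.25 CPM and 4.84 to 6.24 CPM, with a log2 difference of -0.05 (95% interval -0.52 to 0.42). Bub1b, the checkpoint protein BubR1, ranged from 8.66 to 20.3 CPM within the Normoxic group alone, wider than its difference of 0.14.

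Of the spindle and cytokinesis genes, 3 rose. Kif23, the central spindle motor, rose by 2.21 ± 0.54 (edgeR adjusted p = 0.0346), Nusap1, a spindle microtubule protein, by 1.65 ± 0.36 (edgeR adjusted p = 0.0214), and Tpx2, the activator of Aurora A, by 1.22 ± 0.27 (edgeR adjusted p = 0.0209). Tpx2 was at 0.887, 1.02 and 1.08 CPM in Normoxic and 2.1, 2.21 and 2.59 CPM in PBS retinas, with little spread inside either group. Prc1, the microtubule bundler of the midzone, missed the threshold at 1.46 ± 0.39 (edgeR adjusted p = 0.0523), and passed it under 8 of 19 alternatives, among them without PBS 2 (adjusted p = 0.0448), Gel 1 (adjusted p = 0.0261) or Gel 3 (adjusted p = 0.045). Kif20a, a cytokinesis motor, had 0.95 ± 0.29 (edgeR adjusted p = 0.0819), and Anln, anillin of the contractile ring, 1.19 ± 0.47 (edgeR adjusted p = 0.174). These 3 did not overlap between Normoxic and PBS, but Kif20a shares 1271 exon bases with Cdc23 and Prc1 shares 911 with Rccd1 on opposite strands. Kif11, the bipolar spindle motor, at 0.53, Cenpe, a kinetochore motor, at 0.27, Cenpf, a kinetochore protein, at 1.15 and Ect2, which activates RhoA at the division plane, at -0.23 did not pass.

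Among replication genes, Uhrf1 and Tk1 had the largest changes. Uhrf1, which brings DNA methylation to newly copied DNA, was at 0.443, 0.246 and 0.359 CPM in Normoxic and 2.52, 1.7 and 2.08 CPM in PBS retinas. The groups stood well apart, and the log2 change was 2.59 ± 0.38 (edgeR adjusted p = 0.00308). Tk1, the S-phase thymidine kinase, was at 0.239, 0.215 and 0.359 CPM and then at 1.15, 1.74 and 2.87 CPM, a change of 2.83 ± 0.51 (edgeR adjusted p = 0.00833). The promoters printed above hold an E2F match for Uhrf1, whereas Rrm1 and Mcm7, which also hold one, changed by 0.23 and 0.13 and did not pass.

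Of the 6 subunits of the MCM2-7 helicase, 3 rose. Mcm2 was at 10.7, 9.14 and 7.94 CPM in Normoxic and 15.5, 13.7 and 20.7 CPM in PBS retinas, a change of 0.87 ± 0.19 (edgeR adjusted p = 0.0208). Mcm3 rose by 1.18 ± 0.26 (edgeR adjusted p = 0.0214) and Mcm6 by 0.84 ± 0.19 (edgeR adjusted p = 0.0236). In these 3 subunits the groups did not overlap. Mcm5 had 0.61 (95% interval 0.14 to 1.08), Mcm4 0.30 (-0.04 to 0.65) and Mcm7 0.13 (-0.16 to 0.42), and none of them passed with all libraries. Mcm5 did without PBS 2 (adjusted p = 0.0405). Mcm7 shares exon bases with Ap4m1 and Cops6 on the opposite strand.

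Pcna, the sliding clamp of the polymerases, was at 53.2, 48.2 and 48.3 CPM in Normoxic and 62.6, 60.2 and 95.4 CPM in PBS retinas. No library overlapped, yet PBS 3 was far above the other PBS libraries and the change of 0.56 ± 0.20 did not pass (edgeR adjusted p = 0.13). The ribonucleotide reductase subunits gave 1.36 ± 0.45 for Rrm2, the S-phase subunit (edgeR adjusted p = 0.107), and 0.23 ± 0.14 for Rrm1. Tyms, thymidylate synthase, at 0.35 and Hells, a chromatin remodeler, at 0.04 did not pass either.

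Of the G1 regulators, only Ccnd1 passed. Ccnd1, cyclin D1, was at 22.7, 27.2 and 24.6 CPM in Normoxic and 44.1, 39.1 and 41 CPM in PBS retinas, a change of 0.75 ± 0.13 (edgeR adjusted p = 0.00824) with no overlap. It shares 1100 exon bases with LTO1 on the opposite strand, whose means were 25.6 and 25.7 CPM. E2f1, an S-phase transcription factor, was at 2.05, 3.51 and 3.98 CPM and then at 6.91, 5.42 and 4.19 CPM, also without overlap, but 0.79 ± 0.28 did not pass (edgeR adjusted p = 0.125). Ccne1, cyclin E1, was at 7.2, 7.08 and 6.83 CPM and then at 5.03, 6 and 5.85 CPM, at -0.31 ± 0.16 (edgeR adjusted p = 0.285).

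Hmgb2, a DNA-bending protein abundant in dividing cells, was at 20.4, 17.6 and 19.6 CPM in Normoxic and 47.3, 62.5 and 129 CPM in PBS retinas. It spread widely inside the PBS group without touching the Normoxic range, and rose by 2.08 ± 0.33 (edgeR adjusted p = 0.00497). Stmn1, stathmin, a microtubule regulator that neurons also use, was at 136, 130 and 144 CPM and at 116, 132 and 171 CPM, a difference of 0.05 that lay inside the spread of either group.

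**Figure D3:**
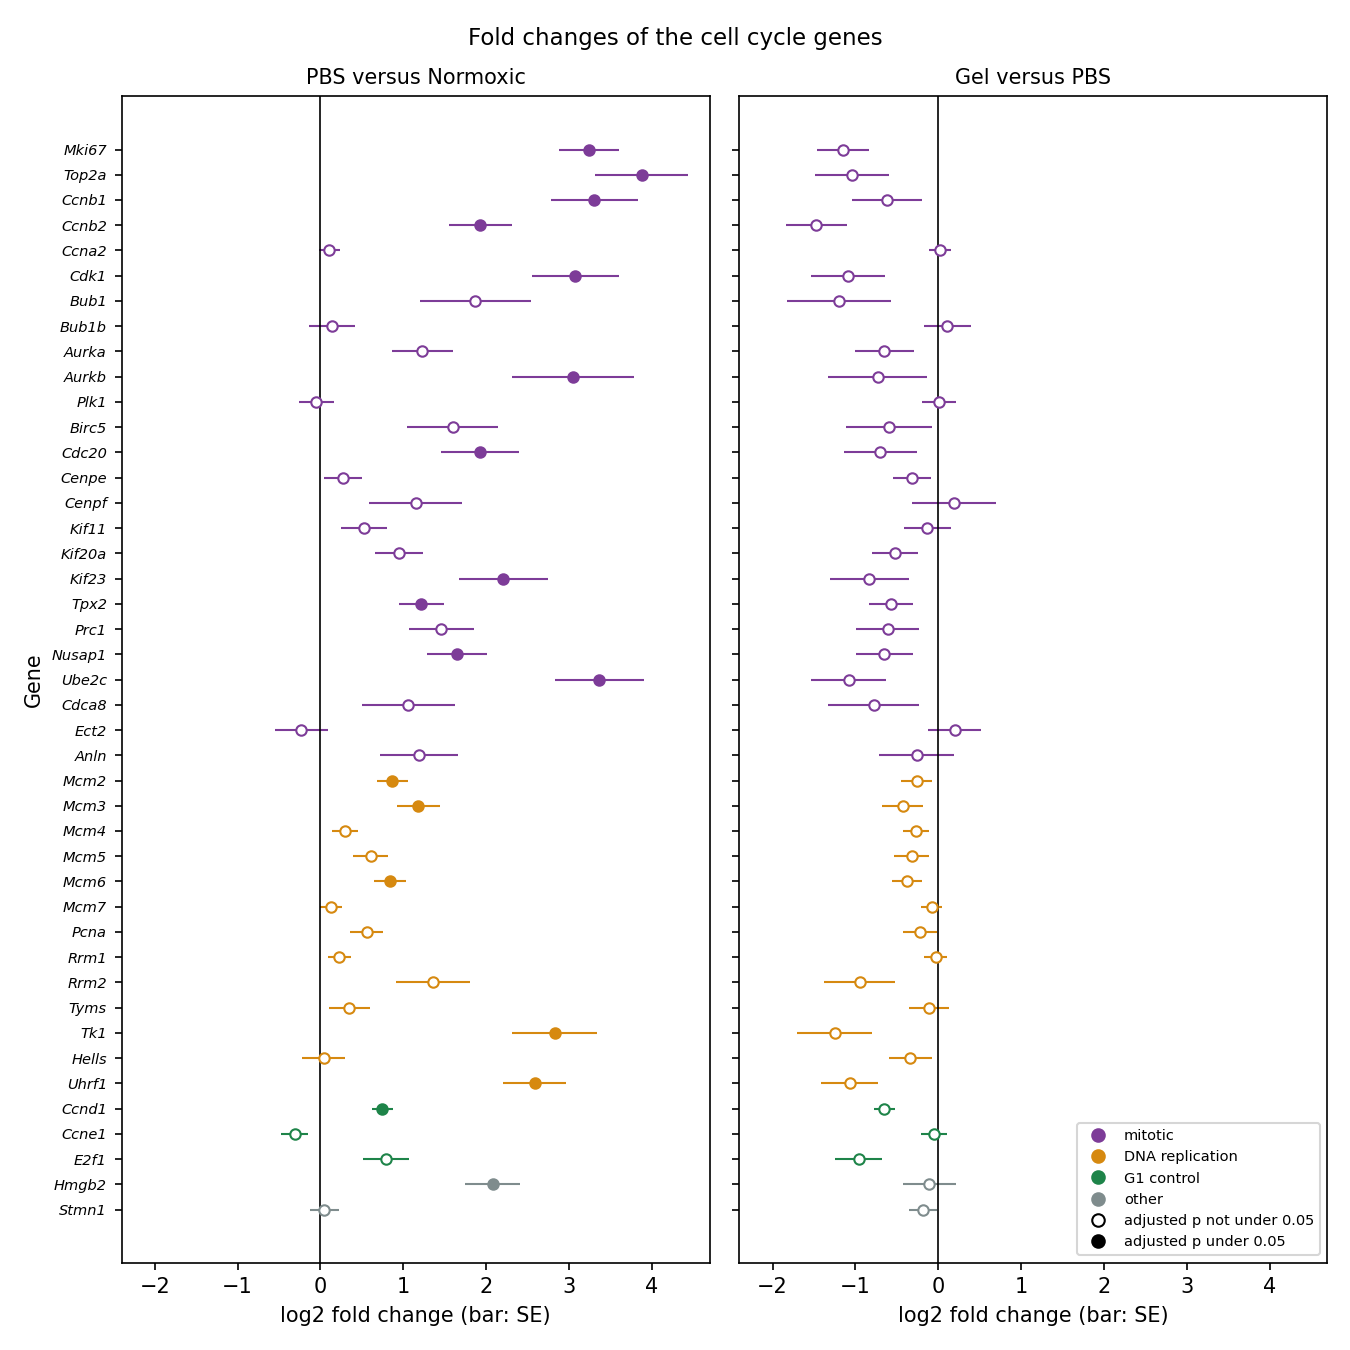
Log2 fold change with its standard error for the 43 genes in PBS against Normoxic and in Gel against PBS, filled where the edgeR adjusted p is under 0.05. Filled points appear in PBS against Normoxic (18 genes) and in none of the Gel against PBS values.

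The median fitted fold change was larger over the mitotic genes and the median FPKM over the replication genes. Of 25 mitotic genes 11 rose (44%), with a median log2 change of 1.46, and of 13 replication genes 5 rose (38.5%), with a median of 0.61. All PBS libraries were above all Normoxic libraries in 18 mitotic (72%) and 9 replication genes (69.2%). Of all genes tested, 4.31% were called higher and 14.9% were higher without overlap. Split by the mean over all 9 libraries, 11 of 21 mitotic genes at up to 3 CPM rose with a median of 1.65, and 2 of 5 such replication genes with a median of 1.36. Above 3 CPM, 0 of 4 mitotic genes (Ccna2, Bub1b, Plk1 and Cenpe) rose, with a median of 0.12, and 3 of 8 replication genes did, with a median of 0.59. These medians carry no test, and on log2(FPKM + 1), which shrinks low genes, they were 0.35 for mitotic and 0.36 for replication genes. The expression filter also bears on the contrast: 10 of the 12 genes that passed it without all Normoxic libraries were mitotic, and 9 of those 12 were called against 9 of the other 31. Among genes with every Normoxic library at the filter level, 4 of 15 mitotic and 3 of 11 replication genes were called.

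**Figure D4:**
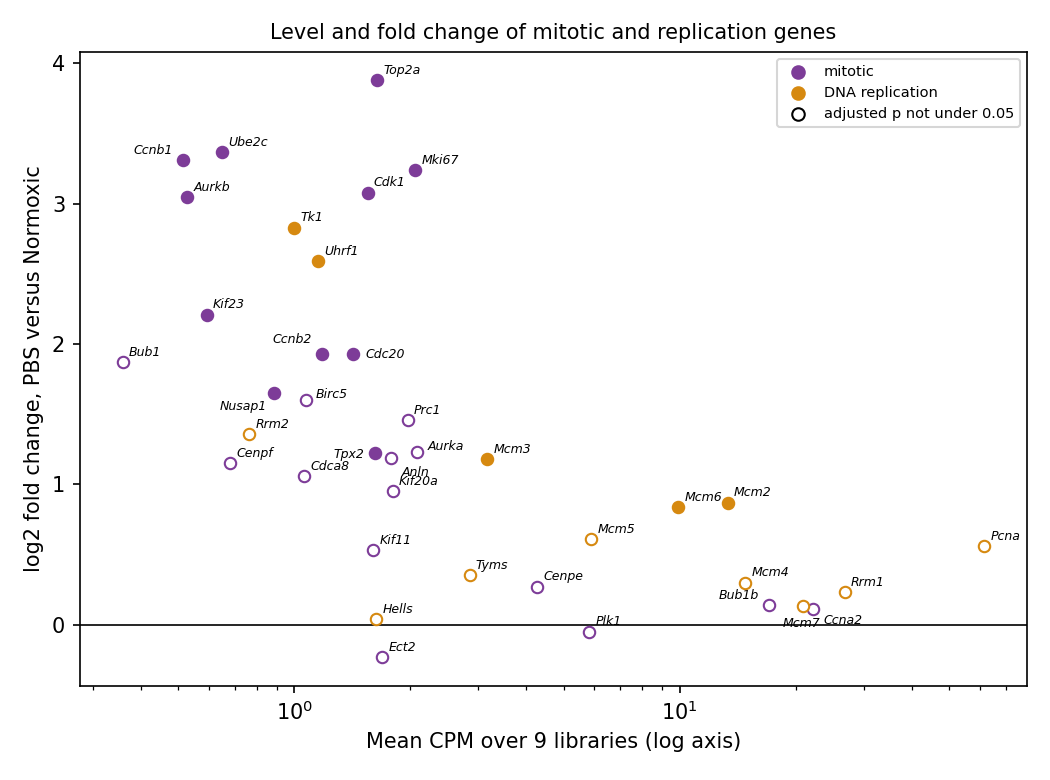
Mean CPM (counts not divided by length) over the 9 libraries on a log axis against the log2 fold change of PBS against Normoxic, with mitotic and replication genes in different colours. The mitotic genes over 3 CPM (Ccna2, Bub1b, Plk1 and Cenpe) sit near 0 and the called mitotic genes lie to their left.

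The mean of log2(CPM + 0.5) over the mitotic genes, relative to Normoxic, was 0.04, 0.08 and -0.12 in Normoxic retinas. It was 0.75, 0.81 and 1.22 in PBS retinas and 0.35, 0.56 and 0.68 in Gel retinas. Over the replication genes it was 0.04, -0.02 and -0.01, then 0.57, 0.48 and 0.90, then 0.16, 0.38 and 0.40. On this scale, which adds 0.5 CPM and so shrinks low genes, neither class overlapped between any 2 of the 3 groups. These means include the genes that passed the expression filter without every Normoxic library (10 mitotic and 2 replication), so they are not independent of the filter. The edgeR test of Gel against PBS called no gene. Summed CPM, which is weighted to the abundant genes, did overlap between PBS and Gel in both classes. Over mitotic genes it was 80.4, 88.1 and 104 in PBS and 74.2, 72.9 and 82.8 in Gel retinas. Over replication genes it was 176, 165 and 231, then 143, 177 and 174. PBS 3 was the highest library for both classes on either scale. PBS 3 also differs from the other libraries of its group in gene length, with a Spearman correlation across genes of -0.49 between length and its ratio to them, against 0.32 and 0.41 for PBS 1 and PBS 2. With each library's length trend removed, PBS against Normoxic gave 19 members called higher, with medians of 1.47 for mitotic and 0.61 for replication genes.

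Of the 18 genes called, 7 (Mki67, Top2a, Ccnb1, Cdk1, Ube2c, Uhrf1 and Hmgb2) were called under all 19 alternatives and the other 11 were lost under at least 1. All of the 7 but Hmgb2 are among the 12 genes that passed the expression filter without every Normoxic library at its level. Their stability is therefore not independent of the filter. Leaving out a Normoxic library left 9, 8 and 9 genes called (without Normoxic 1, 2 and 3), and the adjusted p of the lost calls ran from 0.0502 to 0.131, from 0.0502 to 0.146 and from 0.0524 to 0.146. The calls of Ccnb2, Cdc20, Kif23, Tpx2, Nusap1, Mcm3 and Mcm6 were lost without any 1 of the 3, Tk1 without Normoxic 1 or 2, Aurkb and Mcm2 without Normoxic 2 or 3, and Ccnd1 without Normoxic 1 (adjusted p = 0.0506). Without PBS 3, Aurkb, Cdc20, Kif23, Tpx2, Nusap1 and Mcm3 were lost (0.0549 to 0.0975). Kif23 was also lost without PBS 1 (0.0582) or Gel 3 (0.0544), and Aurkb, Cdc20 and Kif23 without PBS 2 (0.0514 to 0.0659) or Gel 2 (0.0537 to 0.0556).

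Of 51 tested mitotic genes outside the 43, 6 were called higher (11.8%) and 1 lower in PBS retinas, beside 4.31% and 2.03% of all genes tested, with a median of 0.49. No test compared these lists with the 43 genes. Cdca3, a mitotic entry factor, was at 1.06, 1.45 and 1.63 CPM in Normoxic and 2.71, 3.92 and 3.12 CPM in PBS retinas, with no overlap, and rose by 1.24 ± 0.28 (edgeR adjusted p = 0.0252). Cdc25b, a phosphatase that activates CDK1, fell from 16.1, 14.5 and 12.7 CPM to 7.61, 10.9 and 7.17 CPM, a change of -0.75 ± 0.19 (edgeR adjusted p = 0.0401). The other 5 called were Kif2c, Hmmr, Aspm, Pbk and Ndc80, which averaged under 1 CPM and are named after their values were seen. Of these 5, at least Kif2c and Ndc80 were under the filter level of 0.319 CPM in every Normoxic library and passed through the other groups. The share called in this list is therefore not independent of the filter. Cdca3 lost its call without Normoxic 1, 2 or 3 or PBS 2 (adjusted p 0.0574 to 0.104), and Cdc25b without Normoxic 1, 2 or 3, PBS 1, PBS 3 or Gel 2 (0.06 to 0.149). Of the 5 scarce genes, Kif2c was called under all 19 alternatives. Aspm was lost without Normoxic 1 or 2 or PBS 1 (0.0501 to 0.0896), Hmmr without Normoxic 2 or 3 (0.0505 to 0.0536), Pbk without Normoxic 2 or 3, Gel 3 or any PBS library (0.054 to 0.153), and Ndc80 without Normoxic 2 or 3, PBS 1 or 3 or any Gel library (0.0528 to 0.167).

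Of 43 tested replication genes outside the list, 2 were called higher (4.65%, close to the 4.31% of all genes tested), with a median of 0.25. Cdt1, which loads the MCM helicase, was at 3.27, 3.6 and 3.2 CPM in Normoxic, 7.01, 6.47 and 4.75 CPM in PBS and 9.06, 6.37 and 7.95 CPM in Gel retinas. It rose by 0.86 ± 0.20 in PBS (edgeR adjusted p = 0.0255) and by 1.22 ± 0.19 in Gel retinas (edgeR adjusted p = 0.0131), both against Normoxic. The first call was lost without Normoxic 1, 2 or 3, PBS 1 or PBS 2 (0.0569 to 0.099), and the second without Normoxic 1, 2 or 3 or Gel 3 (0.055 to 0.0815). Chaf1b, a chromatin assembly subunit under 1 CPM named after its values were seen, had 2.22 ± 0.56 (edgeR adjusted p = 0.0399), lost without any library but PBS 2 and Gel 1 (0.0615 to 0.159).

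Of 23 G1 and E2F regulators, 1 was called higher (4.35%, also close to the 4.31% of all genes tested), with a median of 0.10. Ccnd2, cyclin D2, was at 6, 8 and 3.95 CPM in Normoxic and 14.1, 13.4 and 13.2 CPM in PBS retinas, and rose by 1.19 ± 0.22 (edgeR adjusted p = 0.00864), a call held under all 19 alternatives.

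Of 6 tested inhibitors of the cyclin-dependent kinases, 3 were called higher in PBS retinas (50%, beside 4.31% of all genes tested), with a median of 0.61. Cdkn1a, p21, was at 7.88, 7.88 and 9.21 CPM in Normoxic, 29.8, 20.2 and 33.8 CPM in PBS and 23.9, 25.6 and 28.9 CPM in Gel retinas. PBS and Gel overlapped and both stood above Normoxic, by 1.77 ± 0.20 (edgeR adjusted p = 0.000743) and 1.66 ± 0.20 (edgeR adjusted p = 0.00306). Cdkn2c, p18, rose from 5.8, 5.01 and 5.78 to 10.7, 8.93 and 12.4 CPM, by 0.97 ± 0.20 (edgeR adjusted p = 0.0186), lost without Normoxic 1, 2 or 3 (0.062 to 0.0886). Cdkn2b, p15, under 1 CPM and named after its values were seen, had 2.23 ± 0.51 (edgeR adjusted p = 0.0273), lost without Normoxic 1, 2 or 3 or PBS 1 (0.0707 to 0.0766).

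The effect of the hydrogel is the question of the Gel against PBS comparison, in which 0 of the 43 genes were called by edgeR. No gene of the 17362 was called (0%), while 961 (5.54%) had an unadjusted p under 0.05, among them 9 of the 43. DESeq2 called 64 genes, of which 2 were members, Ccnb2 (adjusted p = 0.0413) and Ccnd1 (adjusted p = 0.00772), both lower, and limma-voom called 0. All 3 comparisons share libraries, so their values are given side by side and not as separate support.

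In 38 of the 43 genes the fitted log2 value was below 0 and in 5 above 0 in Gel against PBS, where 47.3% of all genes were above 0. The median was -0.52 beside -0.01 for all genes, -0.62 for mitotic and -0.32 for replication genes. In 12 genes every Gel library was below every PBS library (7 mitotic, 3 replication, Ccnd1 and E2f1), and in 0 above, where 5.15% and 2.73% of all genes tested did so. The 12 were Mki67, Top2a, Ccnb2, Kif20a, Kif23, Tpx2, Nusap1, Mcm6, Rrm2, Uhrf1, Ccnd1 and E2f1. Without PBS 3 the mitotic and replication medians were -0.32 and -0.15.

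Ccnd1 was at 44.1, 39.1 and 41 CPM in PBS and at 22.5, 30 and 26.5 CPM in Gel retinas, a range that overlaps the Normoxic 22.7 to 27.2 CPM and not the PBS values. Its log2 difference was -0.65 ± 0.13 (95% interval -0.95 to -0.36, edgeR adjusted p = 0.351). Mki67 was at 1.38, 2.47 and 1.51 CPM in Gel retinas, below every PBS library and above every Normoxic one. Its difference from PBS was -1.15 ± 0.31 (95% interval -1.84 to -0.46, edgeR adjusted p = 0.592). Ccnb2 was at 0.471, 1.01 and 0.86 CPM in Gel retinas, below every PBS library and overlapping Normoxic, with a difference of -1.47 ± 0.37 (95% interval -2.27 to -0.66, edgeR adjusted p = 0.576).

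Uhrf1, at 0.741, 1.32 and 0.92 CPM in Gel retinas, was between the groups and overlapped neither, with -1.07 ± 0.34 against PBS (95% interval -1.82 to -0.33, edgeR adjusted p = 0.65). E2f1, at 3.23, 2.72 and 2.49 CPM, lay below PBS and inside the Normoxic range, at -0.96 ± 0.28 (edgeR adjusted p = 0.612). Cdk1 was at 1.35, 1.49 and 1.33 CPM and Ube2c at 0.471, 0.701 and 0.593 CPM, and both overlapped PBS, with differences of -1.09 and -1.08. Tk1 had -1.25 (95% interval -2.24 to -0.25) and Top2a -1.04 (-2.04 to -0.05), also without a call. Hmgb2 was at 75.8, 56.6 and 92.5 CPM in Gel retinas, inside the PBS range, and had a difference of -0.11 whose 95% interval ran from -0.81 to 0.59. Other pathway genes gave 0 calls in this comparison, with medians of -0.19 for mitotic genes, -0.15 for replication genes, -0.07 for G1 and E2F regulators and -0.13 for the inhibitors.

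Against Normoxic, Gel retinas had 4 of the 43 genes called higher and 0 lower, where 1.12% and 0.288% of all genes were and 1.41% in either direction. Mki67 rose by 2.10 ± 0.36 (edgeR adjusted p = 0.0197), Top2a by 2.84 ± 0.56 (edgeR adjusted p = 0.0376), Ccnb1 by 2.69 ± 0.55 (edgeR adjusted p = 0.0405) and Hmgb2 by 1.97 ± 0.33 (edgeR adjusted p = 0.0176). Ccnb1 was at 0.673, 0.589 and 0.475 CPM in Gel retinas, above every Normoxic library, and Top2a at 1.08, 1.54 and 2.02 CPM. All 4 were also called in PBS against Normoxic, and 14 genes were called there alone, although the Gel against PBS test called no difference in any of them. In 36 of the 43 the fitted value was above 0, against 50.1% of all genes. The median was 0.85 over mitotic genes, of which 3 of 25 rose, and 0.34 over replication genes, of which 0 of 13 did, and 16 genes did not overlap upwards and 1 (Ccne1) downwards, against 11.1% and 12.8% of all genes.

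Each of the 4 calls was lost when certain single libraries were left out. All 4 were lost without Normoxic 1 (adjusted p 0.0995 to 0.177) or Normoxic 3 (0.0807 to 0.135). Mki67, Ccnb1 and Hmgb2 were lost without Normoxic 2 (0.0523 to 0.198), Mki67, Top2a and Ccnb1 without Gel 2 (0.0763 to 0.139), and Top2a, Ccnb1 and Hmgb2 without Gel 3 (0.0653 to 0.131). Ccnb1 was lost without Gel 1 (0.0856), under the replicate block (0.0608) and, with Top2a, without PBS 2 (0.0507 and 0.0559). Top2a changed by 3.91 without Normoxic 2. Without PBS 3, 7 genes were called, with Cdk1 and Ube2c among those added.

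Markers of several cell types moved along with these genes, and their part in the result was not tested. Calls of markers, here and in the next paragraph, are for PBS against Normoxic. In that comparison 4.31% of all genes tested were called higher and 2.03% lower. Summed over 9 microglia and macrophage markers, of which 5 were called higher in PBS retinas, CPM was 33.6 to 39.8 in Normoxic, 88.6 to 122 in PBS and 72.4 to 92.1 in Gel libraries. Pericyte and smooth muscle markers (4 of 8 called higher) summed to 133 to 160, 296 to 429 and 221 to 280 CPM. Astrocyte markers (3 of 5 called higher) summed to 69.9 to 94.8, 295 to 461 and 152 to 203 CPM. Endothelial markers, with 5 of 10 called higher and 1 lower, summed to 353 to 398, 364 to 425 and 412 to 432 CPM. Median log2 changes in PBS against Normoxic were 1.69 for microglia, 0.84 for pericyte, 0.72 for astrocyte and 0.87 for endothelial markers. A sum is weighted to the most abundant markers of its list and need not hold for each.

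Retinal progenitor markers summed to 16.1 to 23.2, 12.4 to 19.3 and 9.19 to 12.1 CPM, with 1 of 6 tested called lower, none higher and Olig2 at 0 in Gel. Neutrophil markers were at most 0.478 CPM in any library, with S100a8 and Ly6g at 0 in Normoxic and Ly6g at 0 in Gel, and lymphocyte markers at most 1.08 CPM, with Cd3d at 0 in Gel. Müller glia markers, with 2 of 6 called lower, ran from 2698 to 3999 CPM, rod markers from 43406 to 61662 CPM and erythroid markers from 59.8 to 99.6 CPM over all libraries. Lens markers, 1 of 3 called higher, ran from 370 to 421 CPM, and pigment epithelium markers were 19.5 to 55, 36.4 to 141 and 90.1 to 141 CPM in the Normoxic, PBS and Gel libraries, with 0 of 4 called.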

How the data were processed

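Gene counts and FPKM of 9 mouse retina libraries (3 Normoxic, 3 PBS, 3 Gel) were used as the authors deposited them. The submitters' processing notes name Bowtie2, RSEM 1.3.1, DESeq2 1.4.5 and the build GRCm39, with no roles, while annotation and strand are not given in the sources used here. Deposited counts are whole numbers per gene. The deposited FPKM equal the count over the library total and a gene length that is the same in all libraries.

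Counts were analysed with edgeR 4.0.16 in R 4.3.3: filterByExpr (minimum count 10), TMM scaling, a quasi-likelihood test fitted to all 9 libraries by group alone, and Benjamini-Hochberg adjustment over 17362 genes, called under 0.05. CPM use the library total, ± is SD or, for fold changes, SE. The members and lists were chosen with earlier results of these data known. Any member could be named. From each other pathway list, up to 4 called genes averaging at least 1 CPM with the largest changes were named, and Cdkn1a. Alternatives were DESeq2 1.42.0, limma-voom (limma 3.58.1), limma on log2(FPKM + 0.1) and log2(FPKM + 1), DESeq2 size factors, total counts, no expression filter, 2 groups only, the replicate number as a block, gene length trends removed, and each library left out. The test was tried on simulated counts: in PBS against Normoxic, 58.2% of genes changed 2-fold and 93.9% changed 4-fold were called, over 17362 genes. Of genes changed 1.5-fold, 14.9% were called, and 7.5% of all calls were false. Far fewer genes were changed there (67, 67 and 66 at 1.5-fold, 2-fold and 4-fold) than the 1101 called in the data. Cell type markers were lists for endothelial, microglia, pericyte, astrocyte, Müller glia, progenitor, rod, erythroid, lymphocyte, neutrophil, lens and pigment epithelium. Cd3e, Mpo and Foxe3 were not analysed here. Shared exons come from GENCODE M21 and promoters from RefSeq, both on GRCm38.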

Additional observations from a re-analysis of the deposited data

How the results depend on the processing

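In PBS against Normoxic, the 18 members called stayed within 1.5 times under every alternative but the loss of a Normoxic library, and ranged from 8 to 19 over the left-out libraries. All genes called were 1101, 1936 by DESeq2, and 455 to 1184 over left-out libraries, with fewer libraries in each such fit. The mitotic median of 1.46 was 1.09 on log2(FPKM + 0.1), 0.35 on log2(FPKM + 1), 1.20 over members of at least 1 CPM and 1.15 to 1.59 over left-out libraries. The replication median of 0.61 was 0.36 on log2(FPKM + 1) and 0.43 to 0.78 over left-out libraries. A larger number added before taking logs shrinks low genes by construction, and on log2(FPKM + 1) the mitotic median no longer exceeds the replication median.

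In Gel against PBS, 0 genes were called by edgeR, 64 by DESeq2, 3 with length trends removed, 24 without an expression filter and 0 to 12 over left-out libraries. DESeq2 called 2 members lower. The mitotic median of -0.62 was -0.17 on log2(FPKM + 1) and -0.78 to -0.32 over left-out libraries, and the replication median ranged from -0.41 to -0.15.

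In Gel against Normoxic, the 245 genes called were 854 by DESeq2, 399 with length trends removed, 389 without a filter, 643 with 2 groups only and 47 to 735 over left-out libraries. The 4 members called were 7 by DESeq2, 7 with 2 groups only (40 members tested), 2 by limma-voom, 1 on log2(FPKM + 1) and 0 to 7 over left-out libraries. The mitotic median of 0.85 was 0.53 and 0.15 on log2(FPKM + 0.1) and log2(FPKM + 1), 0.52 over members of at least 1 CPM and 0.54 to 0.87 over left-out libraries. The replication median was 0.17 on log2(FPKM + 1) and 0.28 to 0.43 over left-out libraries. The cause of these shifts was not tested.

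Signs reversed, all without a call, over left-out libraries in PBS against Normoxic for Bub1b (-0.15 without Normoxic 3 and -0.09 without PBS 3, to 0.36), Plk1 (-0.12 to 0.04, above 0 without PBS 3), Hells (-0.07 without Normoxic 3 and -0.09 without PBS 2, to 0.13) and Stmn1 (-0.16 without PBS 3, to 0.17, and -0.18 with length trends removed). They also did for Cdkn1a in Gel against PBS (-0.30 to 0.09, above 0 without PBS 3), where only 12 members and Cdkn1a were followed. Hmgb2, Pcna, Rrm1 and Plk1, among others, were not followed in Gel against PBS. Apart from PBS 3, Hmgb2 was at 47.3 and 62.5 CPM in PBS libraries, beside a Gel mean of 75 CPM. Its difference of -0.11 therefore need not keep its sign without PBS 3. In Gel against Normoxic, again among the genes followed, they did for Ccnd1 (-0.03 without Gel 2, to 0.20) and E2f1 (-0.41 to 0.03, above 0 without Normoxic 3). Plk1, among others, was not followed there.

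The labels do not say whether equal replicate numbers pair the libraries. Deviations of same-numbered pairs correlated at -0.21 to 0.36, and of other pairs at -0.51 to 0.31. Between PBS and Gel, the pairs numbered 1, 2 and 3 gave 0.33, -0.21 and 0.36. These ranges overlap and cannot decide whether the numbers pair libraries. With the replicate block, 1050, 0 and 227 genes were called in the 3 comparisons, with 19, 0 and 3 members. The block put the PBS against Normoxic medians at 1.43 for mitotic and 0.59 for replication genes.

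Low counts limit the mitotic genes most. In Normoxic libraries several had under 1 CPM, so their fold changes have wide errors. In simulated Gel against PBS data over 17362 genes, 7.46% of genes changed 1.5-fold and 58.2% changed 2-fold were called, so changes of that size can be missed.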
